A study of Homo sapiens with 12 samples.

Results

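The genes described here are the mitotic genes, a list of 40 genes whose products carry cells into and through mitosis. They were measured in tumour spheroids grown from HepG2, an established human liver cancer cell line. A listed gene was kept if the arrays held a probe set annotated to that gene alone, and where there were several the brightest over all arrays stood for it. This left 39 of the 40 genes, among 18404 genes in all. CENPA was matched only by a probe set that carries several gene symbols and was not analysed here, and BIRC5 was the only member with 2 probe sets.

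The study compared 3 groups of 4 arrays, each array from a different spheroid experiment. Wild type HepG2 spheroids, spheroids with a knockdown of HIF-1α (gene HIF1A) and spheroids with a knockdown of HIF-2α (gene EPAS1) were all 10 days old and were grown in stirred flasks. Per the labels' protocols, total RNA was taken up on columns and amplified with a kit for small samples, applied for 250 microdissected cells. How the subunits were knocked down, whether wild type cells carried a control construct, whether a knockdown line came from 1 clone and which zone of the spheroid was sampled were not given in the sources used here. In bulk RNA of this kind, fewer cells in mitosis and less mitotic RNA per cell cannot be told apart.

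HIF-1α and HIF-2α are the parts of the hypoxia-inducible factors that oxygen destabilizes. Transcripts of mitotic genes are scarce in resting cells and rise together late in the cell cycle, when cyclin B and its kinase CDK1 drive entry into mitosis, kinesins and kinetochores move the chromosomes, and the anaphase-promoting complex ends the phase by marking securin and the cyclins for destruction. Their summed level is widely read as a measure of how many cells are proliferating. Promoters of such genes typically carry a short element named the cell cycle genes homology region (CHR), bound by the repressive DREAM complex and by the activating complex of MYBL2 and FOXM1, and CCAAT boxes bound by NF-Y.

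The promoters of the members were read from RefSeq (assembly GRCh38.p14) to show what the list shares outside these arrays. Of the 39 members, 32 had an entry, with 40 start sites between them, and FOXM1, AURKA, BIRC5, BUB3, TTK, UBE2C and TPX2 had none. The stretches printed here are the 130 bases just before the start of transcription of 7 members. They were chosen to cover different roles: the cyclins CCNB1 and CCNB2, the kinase PLK1, the activator CDC20, the motor KIF20A, the antigen MKI67 and the topoisomerase TOP2A. They run 5′ to 3′ on the strand of the gene, with 2 motifs in capitals. One is the CHR, searched as TTTGAA and, in its variant forms, as TTCGAA or else as TTTAAA. The other is the CCAAT box, which appears as ATTGG where the box lies on the opposite strand. The positions are chr5:69167020-69167149 (plus strand) for CCNB1, chr15:59105016-59105145 (plus) for CCNB2, chr16:23678759-23678888 (plus) for PLK1, chr1:43358851-43358980 (plus) for CDC20, chr5:138178982-138179111 (plus) for KIF20A, chr10:128126424-128126553 (minus) for MKI67 and chr17:40417897-40418026 (minus) for TOP2A.
CCNB1: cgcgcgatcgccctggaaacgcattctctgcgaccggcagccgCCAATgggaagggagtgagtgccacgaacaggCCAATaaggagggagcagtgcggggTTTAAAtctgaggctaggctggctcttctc
CCNB2: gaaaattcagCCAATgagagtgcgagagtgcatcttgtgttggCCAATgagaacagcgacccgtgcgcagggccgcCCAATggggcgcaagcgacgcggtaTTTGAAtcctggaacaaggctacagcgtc
PLK1: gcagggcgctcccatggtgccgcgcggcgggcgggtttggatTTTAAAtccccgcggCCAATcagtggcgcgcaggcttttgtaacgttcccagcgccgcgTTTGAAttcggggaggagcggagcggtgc
CDC20: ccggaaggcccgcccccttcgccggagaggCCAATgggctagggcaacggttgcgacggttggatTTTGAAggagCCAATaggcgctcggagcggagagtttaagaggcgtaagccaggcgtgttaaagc
KIF20A: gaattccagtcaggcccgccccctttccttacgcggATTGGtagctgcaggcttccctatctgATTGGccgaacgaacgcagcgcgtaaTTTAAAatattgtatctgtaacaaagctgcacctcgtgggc
MKI67: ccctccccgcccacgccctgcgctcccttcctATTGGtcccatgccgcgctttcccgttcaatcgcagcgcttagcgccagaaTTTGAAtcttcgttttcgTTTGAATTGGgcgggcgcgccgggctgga
TOP2A: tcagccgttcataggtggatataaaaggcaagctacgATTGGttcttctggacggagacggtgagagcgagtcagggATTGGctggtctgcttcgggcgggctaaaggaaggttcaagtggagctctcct

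In CCNB2, PLK1 and MKI67 a TTTGAA lay 29 to 24 bases before the start, and in CCNB1 a TTTAAA lay 30 to 25 bases before it. CCNB2 held 3 CCAAT boxes in this stretch, at 120, 87 and 54 bases before the start. PLK1 held a further TTTAAA, and MKI67 held a further TTTGAA. In MKI67 the TTTGAA nearest the start and the ATTGG that follows it overlap. TOP2A held 2 CCAAT boxes and no CHR letters in these 130 bases.

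The same letters were counted on both strands of the whole RefSeq window of each gene, which runs from 250 bases before to 50 bases after the start. Here a gene counts if any of its start sites holds the letters. TTTAAA and TTCGAA read alike on both strands. At least 1 of the 3 forms of the CHR letters stood in 30 of the 32 members (93.8%), against 25.8% of the 14230 measured genes with an entry. TTTGAA alone stood in 23 members (71.9%, against 15.7%) and 2 or more CCAAT boxes in 15 (46.9%, against 14.9%). CHR letters together with a CCAAT box stood in 22 members (68.8%, against 10.8%). Letters of the binding site of E2F, the factor of S-phase genes, taken as TTCGCGC or TTGGCGC, stood in 6 members (18.8%, against 8.44%). For 36 DNA replication genes, which peak earlier in the cell cycle, the order was the other way round: 6 held CHR letters (16.7%) and 17 held E2F letters (47.2%). Of these 36, 14 held 2 or more CCAAT boxes (38.9%). Of 59 further mitotic genes with an entry, from a list described below, 45 held CHR letters (76.3%) and 26 held 2 or more CCAAT boxes (44.1%). These are counts of letters in short windows, with no test, and they say nothing about which factor was bound in these spheroids.

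All values are deposited log2 values, so a difference of 1 is a doubling, and n = 4 arrays per group except where arrays were left out. A probe set's level depends on its own probes, so differences in level between genes were not read as differences in transcript amount. The floor of the arrays, taken as the 0.1 percentile, lay between 6.11 and 6.23 on 9 arrays and between 6.33 and 6.35 on HIF-2α knockdown replicate 4 and 2 wild type arrays, replicates 1 and 2. The lowest single value of any mitotic gene, that of CENPE in wild type replicate 3, was 7.61. The targeted transcripts bore out the labels: HIF1A fell by 1.23 in HIF-1α knockdown (42.5% of wild type left, limma adjusted p = 0.00241, exact permutation p = 0.0286) and EPAS1 fell by 1.12 in HIF-2α knockdown (46.0% left, adjusted p = 0.000206, exact permutation p = 0.0286). That exact p is the smallest that 4 arrays against 4 can give. Without the 3 arrays with a raised floor, the difference of HIF1A was -1.24 and no longer passed (adjusted p = 0.103). Of the 9 hepatocyte markers ALB (13.10 to 14.27) and AFP (12.53 to 13.54) were high on every array, and FGB lay lowest (7.78 to 10.56). Markers of other cell types were not uniformly low. Of the 6 leukocyte markers PTPRC lay between 6.41 and 6.70 and CD14 between 7.04 and 7.63, while CD68 (9.74 to 10.35) and LYZ (12.79 to 13.73) were well above the floor in all groups. Of the 5 endothelial markers KDR lay lowest (6.58 to 6.83) and PECAM1 highest (7.73 to 8.49). Of the 7 fibroblast markers LUM lay lowest (6.29 to 6.54) and COL1A1 highest (7.51 to 7.78). Only PDGFRB and CD14 among these 18 passed a test. PDGFRB, a growth factor receptor of the fibroblast list, fell by 0.40 in HIF-2α knockdown against wild type (limma adjusted p = 0.0109) and was also lower there than in HIF-1α knockdown (-0.35, adjusted p = 0.0105). CD14 was lower in HIF-2α than in HIF-1α knockdown (-0.39, adjusted p = 0.00899). None of these 3 differences passed without the raised-floor arrays. The part of these markers in the values of the mitotic genes was not tested.

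No mitotic gene passed the test in either knockdown. The limma fit over all 18404 genes, with Benjamini-Hochberg adjustment and a threshold of 0.05, called 0 of the 39 genes in HIF-1α knockdown against wild type, 0 in HIF-2α knockdown against wild type and 0 between the knockdowns. The shares of all genes called in these comparisons were 0.962%, 0.788% and 2.77%. At this precision all 39 of the 95% intervals lay within a 2-fold change in either direction in each comparison, and 33, 34 and 38 of them lay within 1.5-fold. The comparisons against wild type share the wild type arrays, so their values are given side by side and their likeness was not counted as a result.

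**Figure D1:**
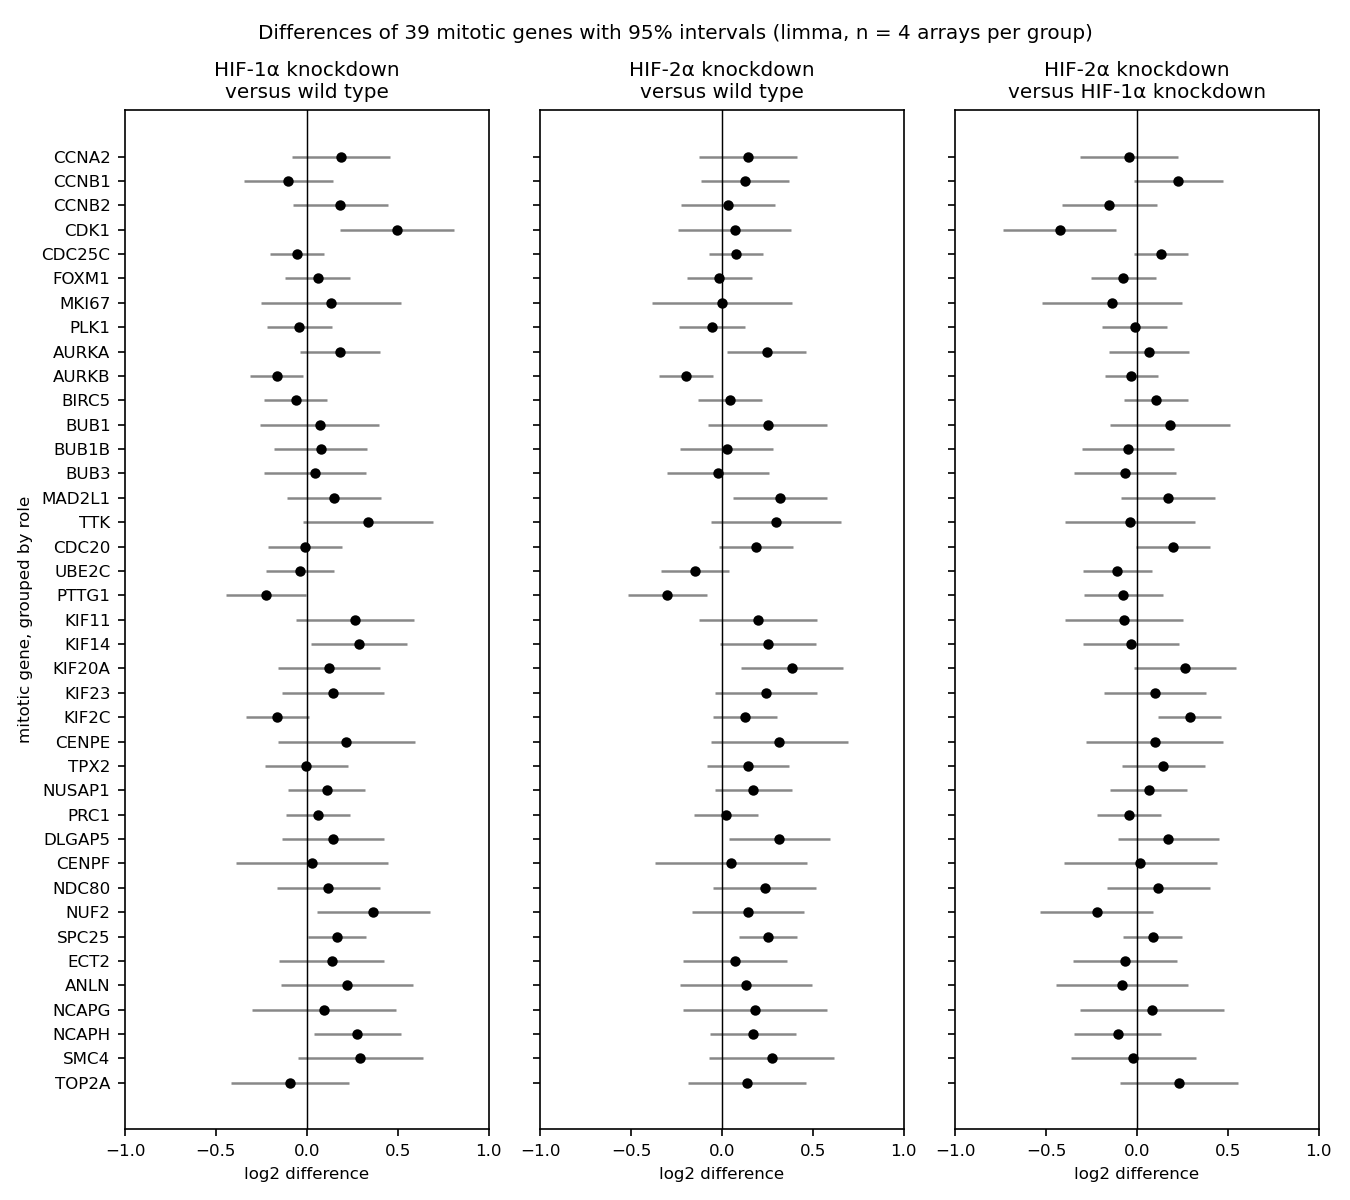
Log2 difference of each of the 39 mitotic genes in the 3 comparisons (x axis, log2 units; y axis, genes grouped by role). Points are differences of group means and bars are 95% intervals from limma (n = 4 arrays per group). The intervals of all 39 genes lie within 1 log2 unit of 0 in each panel, and 28, 32 and 19 of the points lie above 0.

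In HIF-1α knockdown against wild type, 28 of the 39 mitotic genes had a positive difference and the median was 0.12. Over all genes 52.0% were positive and the median was 0.00494. Among genes brighter than the median gene, which included all 39 members, the median was higher, at 0.06. The largest difference of the 39 was that of CDK1, the kinase that starts mitosis, at 0.50 (SE 0.15, adjusted p = 0.126). This was a 1.41-fold level with a 95% interval of 1.13-fold to 1.75-fold. The unadjusted p fell below 0.05 for 7 members (17.9%; 13.2% of all genes), 5 of them higher (CDK1, NUF2, NCAPH, KIF14, SPC25) and 2 lower (AURKB, PTTG1). For none of the 39 did the 4 knockdown arrays lie apart from the 4 wild type arrays, which held for 7.84% of all genes. Under quantile normalization of the arrays the median was 0.03 with 23 positive, and with each array centred on its own median it was 0.08 with 27 positive.

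In HIF-2α knockdown against wild type, 32 of the 39 genes had a positive difference and the median was 0.14. Over all genes 44.6% were positive and the median was -0.01. Among genes brighter than the median gene, which included all 39 members, the median was 0.04. The unadjusted p fell below 0.05 for 7 members (17.9%; 12% of all genes), 5 of them higher (SPC25, KIF20A, MAD2L1, DLGAP5, AURKA) and 2 lower (PTTG1, AURKB). SPC25, a kinetochore subunit, had the smallest p, with a difference of 0.25 (SE 0.08, adjusted p = 0.153). The arrays of the groups lay apart for 2 members (5.31% of all genes): SPC25 was higher on all 4 knockdown arrays and AURKB lower on all 4. The median rested in part on a single array. Without HIF-2α knockdown replicate 2 it was 0.03, with 25 of 39 positive. Without the 3 arrays with a raised floor it was 0.14, with 33 positive. Leaving out replicate 2 and the raised-floor arrays together, a setting not planned in advance, gave a median of -0.00688, with 19 positive. That setting compared only replicates 1 and 3 of HIF-2α knockdown with replicates 3 and 4 of wild type. Under quantile normalization the median was 0.09 with 26 positive, and with each array centred on its own median it was 0.15 with 33 positive.

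Between the knockdowns, 19 of the 39 genes were higher in HIF-2α knockdown and 20 in HIF-1α knockdown. The median difference was -0.01, equal at this rounding to that of all genes (-0.01, 44.7% positive). Among genes brighter than the median gene the median was -0.02. The unadjusted p fell below 0.05 for 2 members (5.13%; 13.6% of all genes), KIF2C with a higher level and CDK1 with a lower level in HIF-2α knockdown. KIF2C, a microtubule depolymerase, differed by 0.29 (SE 0.08, adjusted p = 0.0823) and was the 1 member whose arrays lay apart (9.08% of all genes). The sign of the median was not settled by these data. It was 0.02 under quantile normalization and 0.03 with arrays centred on their medians, -0.06 without HIF-2α knockdown replicate 2 and 0.09 without replicate 3 of that group.

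**Figure D2:**
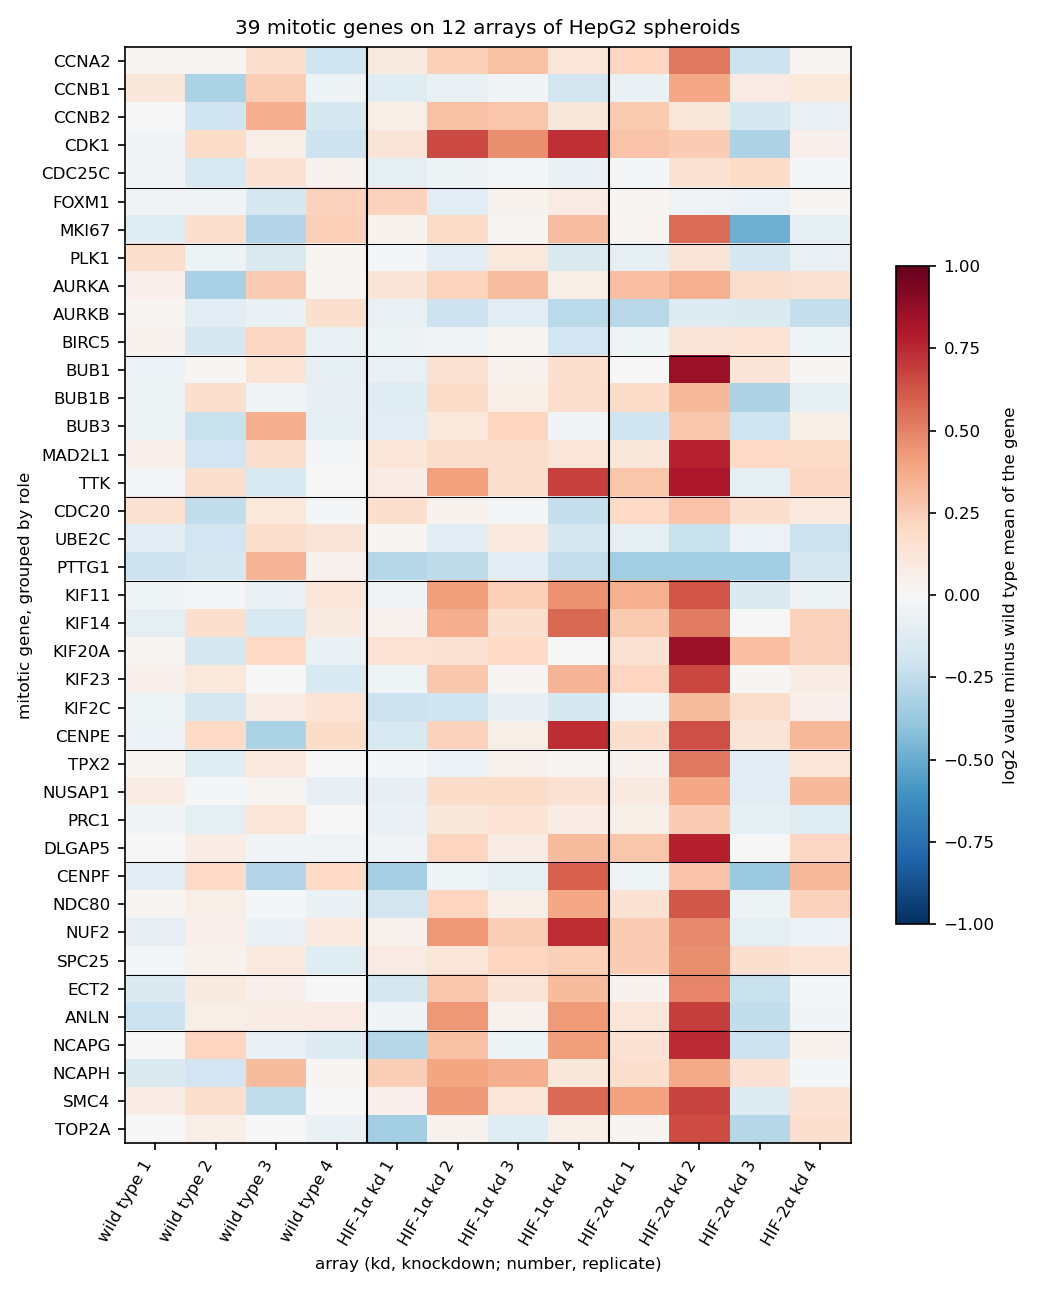
Log2 value of each mitotic gene on each array minus that gene's wild type mean (colour, log2 units from -1 to 1; rows, 39 genes grouped by role, separated by thin lines; columns, 12 arrays, with heavy lines between the groups). The column of HIF-2α knockdown replicate 2 is red for most genes, and PTTG1, AURKB and UBE2C are below their wild type mean on all 4 HIF-2α knockdown arrays.

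The cyclins, CDK1 and the phosphatase CDC25C, which removes the inhibitory phosphates from CDK1, form the switch into mitosis. Values are given in the order of replicates 1 to 4 from here on. CDK1 read 9.60, 9.81, 9.69 and 9.42 on the wild type arrays, 9.75, 10.28, 10.09 and 10.36 on those of HIF-1α knockdown and 9.91, 9.88, 9.32 and 9.68 on those of HIF-2α knockdown. Replicates 2, 3 and 4 of HIF-1α knockdown lay above every other array, while its replicate 1 fell inside the wild type range, so the groups overlap. Between the knockdowns CDK1 differed by -0.43 (SE 0.15, adjusted p = 0.171), and HIF-2α knockdown differed from wild type by 0.07 (95% interval -0.24 to 0.38).

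CCNB1, the cyclin B that partners CDK1, read 10.60, 10.17, 10.73 and 10.43 on the wild type arrays, 10.36, 10.41, 10.46 and 10.30 on those of HIF-1α knockdown and 10.41, 10.87, 10.57 and 10.59 on those of HIF-2α knockdown. The wild type arrays span more than either knockdown group and enclose all 4 HIF-1α knockdown arrays. Its differences from wild type were -0.10 in HIF-1α knockdown and 0.13 in HIF-2α knockdown. CCNA2, the cyclin of S and G2 phase, read 11.60, 11.59, 11.74 and 11.38 on the wild type arrays, 11.67, 11.81, 11.87 and 11.70 on those of HIF-1α knockdown and 11.79, 12.10, 11.37 and 11.61 on those of HIF-2α knockdown. Its highest and its lowest value both came from HIF-2α knockdown, in replicates 2 and 3. CCNB2 differed from wild type by 0.18 and 0.03, and CDC25C by -0.06 and 0.08.

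FOXM1, a transcription factor of late cell cycle genes, differed from wild type by 0.06 in HIF-1α knockdown and -0.01 in HIF-2α knockdown. MKI67 encodes Ki-67, the antigen by which proliferating cells are counted. It read 9.90, 10.20, 9.74 and 10.27 on the wild type arrays, 10.06, 10.21, 10.04 and 10.34 on those of HIF-1α knockdown and 10.04, 10.59, 9.53 and 9.93 on those of HIF-2α knockdown. The HIF-2α knockdown arrays hold both the highest of the 12 values, in replicate 2, and the lowest, in replicate 3, and their mean differed from wild type by -0.00 (95% interval -0.39 to 0.38). In HIF-1α knockdown the difference was 0.14 (95% interval -0.25 to 0.52).

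Among the mitotic kinases, PLK1, which acts at centrosomes and kinetochores, read 12.02, 11.80, 11.70 and 11.87 on the wild type arrays, 11.83, 11.74, 11.95 and 11.70 on those of HIF-1α knockdown and 11.75, 11.98, 11.67 and 11.78 on those of HIF-2α knockdown. All groups overlap, and its differences from wild type were -0.04 and -0.05. AURKB is the kinase of the chromosomal passenger complex, which corrects wrong attachments of chromosomes to the spindle. It read 10.33, 10.19, 10.24 and 10.46 on the wild type arrays, 10.23, 10.10, 10.19 and 10.04 on those of HIF-1α knockdown and 10.03, 10.17, 10.16 and 10.06 on those of HIF-2α knockdown. All 4 HIF-2α knockdown arrays lie below the lowest wild type array, and replicates 1 and 3 of HIF-1α knockdown lie inside the wild type range. The differences were -0.17 (SE 0.07, adjusted p = 0.298) in HIF-1α knockdown and -0.20 (SE 0.07, adjusted p = 0.231) in HIF-2α knockdown. BIRC5, which encodes survivin of the same complex, differed by -0.06 and 0.04. AURKA, the kinase of spindle poles, differed by 0.18 and 0.25.

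The spindle assembly checkpoint holds cells before anaphase until every chromosome is attached. Its 5 members (BUB1, BUB1B, BUB3, MAD2L1, TTK) had positive differences in HIF-1α knockdown, from 0.05 (BUB3) to 0.34 (TTK, the kinase that starts the checkpoint signal), with a median of 0.08. Leaving out 1 array moved that median between 0.04 (HIF-1α knockdown replicate 2) and 0.17 (wild type replicate 3). In HIF-2α knockdown 4 of 5 were positive, from -0.02 (BUB3) to 0.32 (MAD2L1), with a median of 0.25. That median was 0.05, with 3 of 5 positive, when HIF-2α knockdown replicate 2 was left out. None passed the test, the lowest adjusted p being 0.419 and 0.286. MAD2L1, which binds and holds back CDC20, read 9.34, 10.00, 9.43 and 9.42 in HIF-2α knockdown and 9.28, 9.04, 9.39 and 9.21 in wild type. Replicate 2 of HIF-2α knockdown is the high array there, and the other 3 lie from 9.34 to 9.43.

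Exit from mitosis runs through the anaphase-promoting complex, here with its activator CDC20, its ubiquitin-conjugating enzyme UBE2C and its substrate securin, encoded by PTTG1. CDC20 read 10.78, 10.38, 10.73 and 10.62 on the wild type arrays, 10.80, 10.66, 10.62 and 10.40 on those of HIF-1α knockdown and 10.83, 10.91, 10.80 and 10.73 on those of HIF-2α knockdown. Replicates 1, 2 and 3 of HIF-2α knockdown lie above the highest wild type array and replicate 4 lies inside the wild type range, and the difference between the knockdowns was 0.20 (SE 0.09, adjusted p = 0.393). PTTG1 read 9.52, 9.55, 10.07 and 9.77 on the wild type arrays, 9.44, 9.47, 9.61 and 9.49 on those of HIF-1α knockdown and 9.38, 9.39, 9.39 and 9.56 on those of HIF-2α knockdown. Replicates 1, 2 and 3 of HIF-2α knockdown are the lowest arrays of all 12, and replicate 4 and the wild type arrays overlap. PTTG1 differed from wild type by -0.22 (SE 0.10, adjusted p = 0.356) in HIF-1α knockdown and -0.30 (SE 0.10, adjusted p = 0.22) in HIF-2α knockdown, the lowest difference of the 39 members in both. After quantile normalization the difference in HIF-2α knockdown was -0.36 and passed (adjusted p = 0.0479), whereas over all settings tried the adjusted p ran up to 0.441. UBE2C differed by -0.04 and -0.15.

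The 6 mitotic kinesins move along spindle microtubules or take them apart. In HIF-2α knockdown all 6 had positive differences, from 0.13 (KIF2C) to 0.39 (KIF20A), with a median of 0.25, and in HIF-1α knockdown 5 of 6, with a median of 0.18. Without HIF-2α knockdown replicate 2 the median there was 0.13 with 6 positive, and in HIF-1α knockdown it was 0.28 without replicate 1 and 0.12 without replicate 4. None passed the test. KIF20A, a motor of the midzone where the cell divides, read 10.00, 9.82, 10.18 and 9.92 on the wild type arrays, 10.12, 10.12, 10.18 and 9.99 on those of HIF-1α knockdown and 10.13, 10.85, 10.28 and 10.21 on those of HIF-2α knockdown. HIF-2α knockdown replicate 2 stands above all other arrays, and the group differed from wild type by 0.39 (SE 0.13, adjusted p = 0.218). Without replicate 2 that difference was 0.23, and without the arrays with a raised floor it was 0.37. Leaving out both, a setting not planned in advance, gave 0.16 from replicates 1 and 3 of HIF-2α knockdown and replicates 3 and 4 of wild type.

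KIF2C read 9.44, 9.31, 9.56 and 9.62 on the wild type arrays, 9.27, 9.29, 9.41 and 9.33 on those of HIF-1α knockdown and 9.46, 9.80, 9.66 and 9.54 on those of HIF-2α knockdown. Every HIF-2α knockdown array lies above every HIF-1α knockdown array, and the wild type arrays overlap both. The difference between the knockdowns passed after quantile normalization (0.31, adjusted p = 0.00542) and without HIF-2α knockdown replicate 1 (0.34, adjusted p = 0.0424), and the adjusted p reached 0.217 in other settings. From wild type KIF2C differed by -0.16 in HIF-1α knockdown and 0.13 in HIF-2α knockdown.

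CENPE, a motor that carries chromosomes to the middle of the spindle, read 7.87, 8.12, 7.61 and 8.11 on the wild type arrays, 7.77, 8.15, 7.98 and 8.66 on those of HIF-1α knockdown and 8.09, 8.57, 8.05 and 8.26 on those of HIF-2α knockdown. The wild type arrays span 0.51 log2 units, and the highest value belongs to HIF-1α knockdown replicate 4. KIF14, a motor of cytokinesis, read 8.10, 8.35, 8.04 and 8.29 on the wild type arrays, 8.24, 8.56, 8.35 and 8.77 on those of HIF-1α knockdown and 8.46, 8.71, 8.19 and 8.43 on those of HIF-2α knockdown. Both groups overlap with wild type, with differences of 0.29 (SE 0.12, adjusted p = 0.326) in HIF-1α knockdown and 0.25 (SE 0.12, adjusted p = 0.44) in HIF-2α knockdown. KIF11, which pushes the spindle poles apart, differed from wild type by 0.27 and 0.20, and KIF23, part of the complex that bundles midzone microtubules, by 0.15 and 0.24.

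**Figure D3:**
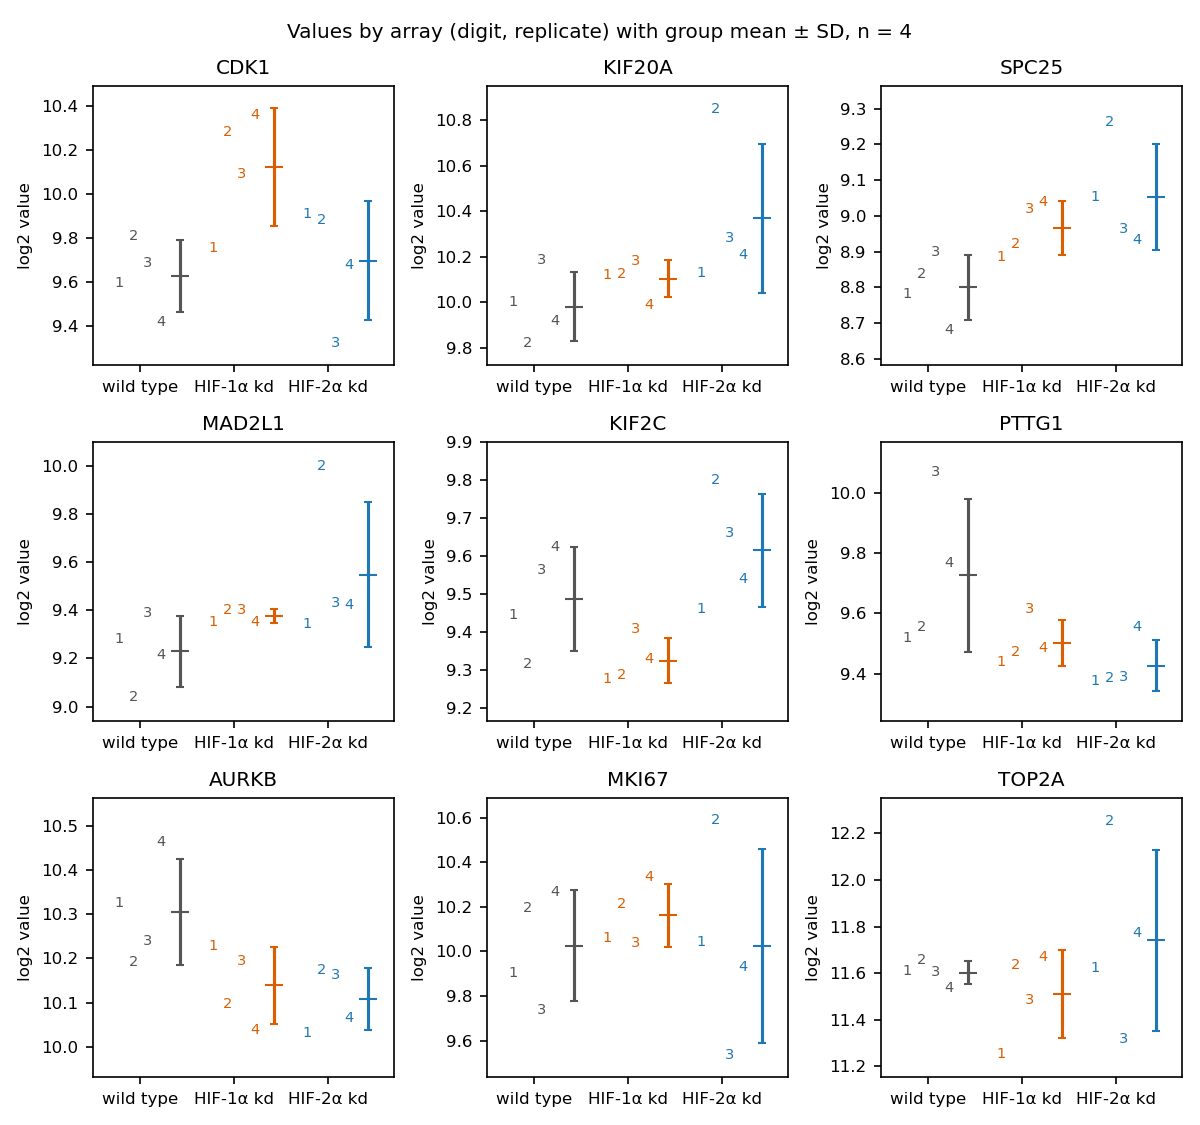
Log2 values of 9 mitotic genes on each array (y axis, log2 value; x axis, group; each digit is the replicate number of 1 array; bars, mean ± SD, n = 4). The digit 2 of HIF-2α knockdown is the top point of KIF20A, SPC25, MAD2L1, KIF2C, MKI67 and TOP2A, and the knockdown groups lie apart from each other only in KIF2C.

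The spindle proteins TPX2, NUSAP1, PRC1 and DLGAP5 bind and order microtubules. In HIF-2α knockdown all 4 had positive differences, from 0.02 (PRC1, the linker of antiparallel microtubules) to 0.32 (DLGAP5), with a median of 0.16. The median was 0.06 without replicate 2 of that group, with PRC1 negative (-0.05), and 0.25 without its replicate 3. In HIF-1α knockdown 3 of 4 were positive, with a median of 0.09 (0.14 without replicate 1). DLGAP5 had the lowest adjusted p of these in HIF-2α knockdown, 0.336.

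NDC80, NUF2 and SPC25 belong to the complex that ties kinetochores to microtubules, and CENPF is a large kinetochore protein. All 4 had positive differences in both knockdowns, with medians of 0.14 in HIF-1α and 0.19 in HIF-2α knockdown. These were 0.09 without HIF-1α knockdown replicate 4 and 0.07 without HIF-2α knockdown replicate 2, and in each case CENPF was then negative (-0.16 and -0.03). NUF2 read 8.71, 8.85, 8.73 and 8.89 on the wild type arrays, 8.84, 9.23, 9.04 and 9.54 on those of HIF-1α knockdown and 9.05, 9.27, 8.70 and 8.74 on those of HIF-2α knockdown. Replicates 2, 3 and 4 of HIF-1α knockdown lie above the wild type range and replicate 1 lies inside it, a pattern shared with CDK1. The difference was 0.37 (SE 0.14, adjusted p = 0.272) in HIF-1α knockdown and 0.14 in HIF-2α knockdown. SPC25 read 8.78, 8.84, 8.90 and 8.68 on the wild type arrays, 8.88, 8.92, 9.02 and 9.04 on those of HIF-1α knockdown and 9.05, 9.26, 8.96 and 8.93 on those of HIF-2α knockdown. The HIF-2α knockdown arrays lie above all wild type arrays, and HIF-1α knockdown overlaps with wild type through its replicate 1. CENPF had the widest interval of all members in HIF-1α knockdown, -0.39 to 0.45 around a difference of 0.03.

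Condensin compacts the chromosomes, and topoisomerase II alpha, encoded by TOP2A, untangles the DNA. NCAPH, a condensin subunit, read 9.89, 9.85, 10.35 and 10.05 on the wild type arrays, 10.28, 10.42, 10.40 and 10.15 on those of HIF-1α knockdown and 10.20, 10.42, 10.18 and 10.02 on those of HIF-2α knockdown. Wild type replicate 3 lies inside the range of HIF-1α knockdown, so the groups overlap, and the difference was 0.28 (SE 0.11, adjusted p = 0.276). TOP2A read 11.61, 11.66, 11.60 and 11.54 on the wild type arrays, 11.25, 11.64, 11.48 and 11.67 on those of HIF-1α knockdown and 11.62, 12.25, 11.32 and 11.77 on those of HIF-2α knockdown. The wild type values lie within 0.12 log2 units, while HIF-2α knockdown spans 0.93, from replicate 3 to replicate 2. NCAPG and SMC4, further condensin subunits, differed from wild type by 0.10 and 0.29 in HIF-1α knockdown and by 0.18 and 0.27 in HIF-2α knockdown. The cytokinesis genes ECT2 and ANLN differed by 0.14 and 0.22 in HIF-1α knockdown and by 0.07 and 0.13 in HIF-2α knockdown.

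Single arrays carried much of the spread of the mitotic genes. The mean of the 39 genes lay between 9.82 and 9.89 on the wild type arrays (SD 0.03). It lay between 9.82 and 10.04 in HIF-1α knockdown (SD 0.10) and between 9.78 and 10.27 in HIF-2α knockdown (SD 0.21). HIF-2α knockdown replicate 2 held the highest value of its group for 31 of the 39 members, against 27.5% of all genes, and the highest of all 12 arrays for 24, against 15.8% of all genes. The median member lay 0.39 above the mean of the other 3 arrays of the group, and BUB1, a checkpoint kinase, lay 0.82 above it. The rise on this array was not confined to the members. Its median was 0.23 for further mitotic genes, 0.235 for DNA replication genes and 0.26 for ribosomal protein genes, lists described below, and -0.03 over all genes. The array was also the lowest of its group for 36.3% of all genes. HIF-2α knockdown replicate 3 lay at the other end, lowest of its group for 24 members against 18.4% of all genes, with MKI67 at 0.65 under the mean of the other 3.

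In HIF-1α knockdown, replicate 1 was the lowest of its group for 26 of the 39 members, against 22.5% of all genes, with NCAPG at 0.51 under the mean of the other 3 arrays. Replicate 4 was the highest for 17 members, led by CENPF at 0.76 over the mean of the other 3, and the lowest for 10 (43.6% and 25.6% of members, against 22.4% and 26.9% of all genes). Among the wild type arrays, replicate 3 was the highest for 16 members (41.0%, against 28.0% of all genes), among them CCNA2, CCNB1, CCNB2, AURKA, BUB3 and PTTG1, and the lowest for 10 (25.6%, against 22.6%), among them MKI67, TTK, KIF14, CENPE, CENPF and SMC4. Replicate 2 was the highest for 13 members (33.3%, against 27.3%) and the lowest for 15 (38.5%, against 29.5%). Several of these shares lie near those of all genes.

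**Figure D4:**
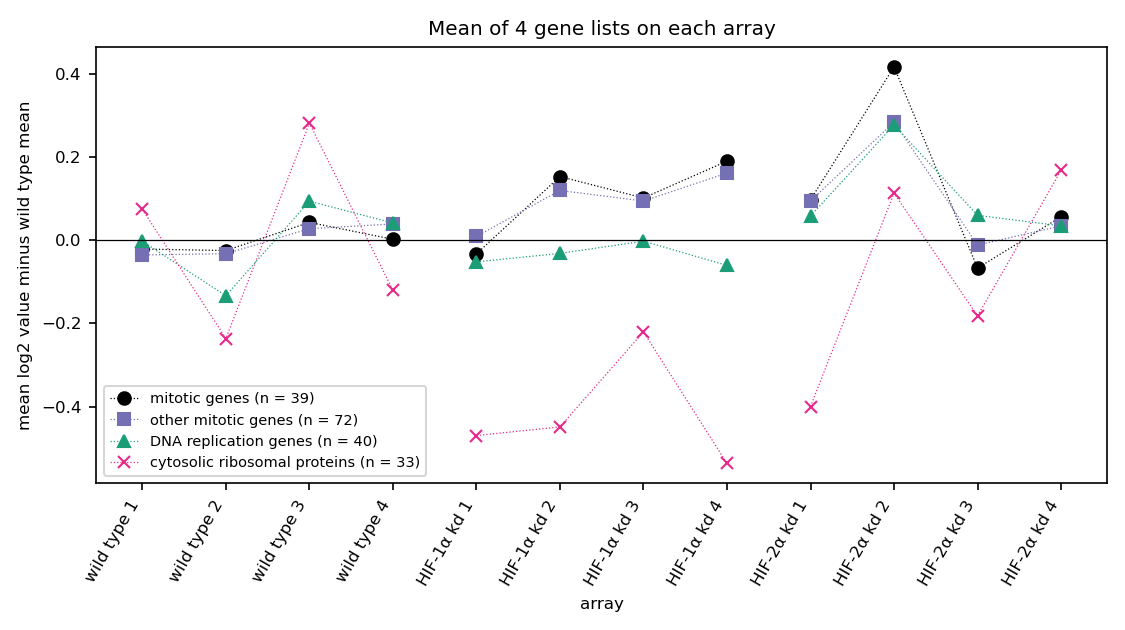
Mean log2 value of 4 gene lists on each of the 12 arrays, minus the wild type mean of that list (y axis, log2 units; x axis, arrays by group; n is the number of genes in a list). The mitotic genes, the other mitotic genes and the DNA replication genes are all highest on HIF-2α knockdown replicate 2, and the ribosomal protein genes lie lowest on HIF-1α knockdown replicate 4.

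Leaving out each array in turn showed how far the group differences depended on it. The loss of an array of the third group cannot change a difference between the groups compared. In HIF-1α knockdown against wild type the median over the 39 genes ran from 0.07 without HIF-1α knockdown replicate 4 to 0.17 without its replicate 1, and the count of positive members from 27 to 31. Of the 28 members that were positive with all arrays, 25 were so whichever array was left out. For HIF-2α knockdown these numbers were 22 of 32. In HIF-2α knockdown against wild type it ran from 0.03 without replicate 2 to 0.22 without replicate 3, with 25 and 34 positive. Between the knockdowns it ran from -0.06 without HIF-2α knockdown replicate 2 (12 of 39 positive) to 0.09 without replicate 3 (29 positive). With any 1 of the 12 arrays left out, the count of called members was 0 or 1.

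**Figure D5:**
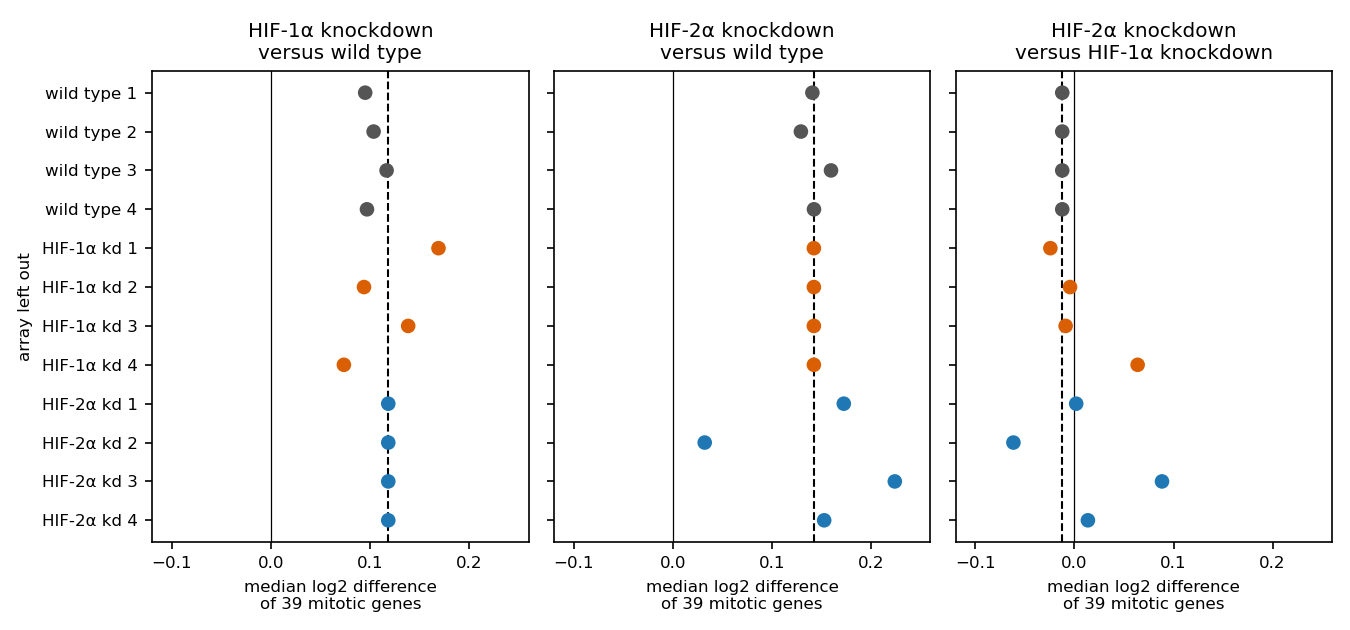
Median log2 difference of the 39 mitotic genes when 1 array is left out (x axis, log2 units; y axis, the array left out; colours mark its group; dashed line, all 12 arrays; solid line, 0). In the HIF-2α knockdown panel against wild type the points run from 0.03 to 0.22, and in the panel between the knockdowns they lie on both sides of 0.

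Within groups, most members moved together over the 12 arrays, and fewer did without HIF-2α knockdown replicate 2. After the mean of each group was taken off, a member's Pearson correlation with the mean of the other 38 members had a median of 0.75 over the 12 arrays, with 25 of 39 above 0.5. It was highest for DLGAP5 (0.96), ECT2 (0.94) and TOP2A (0.94), and below 0 for CDC20, AURKB, FOXM1 and UBE2C. Without HIF-2α knockdown replicate 2 the median over 11 arrays was 0.48, with 18 of 39 above 0.5 and 10 below 0. Among those below 0 were AURKB (-0.61), PLK1 (-0.26), KIF20A (-0.21) and CCNB1 (-0.03). Over all 18404 genes, the correlation with the mitotic mean had a median of -0.14 and lay above 0.5 for 17.5%. That share was 11.7% over the 11 arrays. Further lists, described below, shared the pattern in part. Over 12 arrays 41 of 72 further mitotic genes (56.9%) and 19 of 40 DNA replication genes (47.5%) lay above 0.5, against 64.1% of the members. Over the 11 arrays these counts were 37 (51.4%) and 10, against 46.2% of the members. These correlations describe arrays that share whole-array differences, and no p is attached to them.

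The 6 genes outside the list whose within-group pattern was most like the mitotic mean were IQGAP1 (0.98 over 12 arrays), USP24 (0.98), ABCE1 (0.98), NCBP1 (0.98), ZMYND11 (0.98) and RAB3GAP2 (0.98). Without HIF-2α knockdown replicate 2 they still stood between 0.92 and 0.99. IQGAP1, which encodes a scaffold protein of the cytoskeleton, read 10.02, 10.80, 9.80 and 9.93 in HIF-2α knockdown, with the same high replicate 2 and low replicate 3 as MKI67 and TOP2A. HIF1A, chosen here after its values were seen, also followed the mitotic mean within groups (0.97 over 12 arrays and 0.90 over 11), while EPAS1 stood at 0.18 and -0.22. In HIF-2α knockdown HIF1A read 10.86, 11.46, 10.52 and 10.92.

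A list of 72 further mitotic genes had a median difference of 0.11 in HIF-1α knockdown (49 positive), 0.10 in HIF-2α knockdown (52 positive) and -0.01 between the knockdowns (33 positive). The test called 1 of the 72 in HIF-1α knockdown, 0 in HIF-2α knockdown and 0 between the knockdowns. At an unadjusted p below 0.05 the same limma fit counted 20, 12 and 8 (27.8%, 16.7% and 11.1% of the list, against 13.2%, 12% and 13.6% of all genes). Without HIF-2α knockdown replicate 2 the median in HIF-2α knockdown was 0.04, with 45 positive. The called gene was MIS12, a subunit of the kinetochore base, which rose by 0.41 (SE 0.09, adjusted p = 0.0471). MIS12 no longer passed when wild type replicate 1, 2 or 4 or HIF-1α knockdown replicate 2, 3 or 4 was left out. Nor did it pass under quantile normalization, with arrays centred on their medians, with the replicate number as a block or without the raised-floor arrays. It passed in 10 of 21 alternative settings, and over all settings tried its adjusted p ran from 0.0257 to 0.22. After quantile normalization 2 of the 72 passed in HIF-1α knockdown, and MIS12 was not among them. In HIF-2α knockdown 0 passed and between the knockdowns 3, and the counts of all genes in these comparisons were 294, 388 and 850. Of 16 measured genes of the anaphase-promoting complex, its enzymes and its inhibitors, 13 were positive in each knockdown, with medians of 0.12 and 0.09. None passed in any comparison, and the limma fit counted 3, 1 and 3 at an unadjusted p below 0.05 (18.8%, 6.25% and 18.8% of the list, against 13.2%, 12% and 13.6% of all genes). FBXO5, an inhibitor of the complex, had the smallest p of these in HIF-1α knockdown, with a difference of 0.40 (SE 0.15, adjusted p = 0.250). After quantile normalization 1 of the 16 passed between the knockdowns and 0 in each knockdown against wild type.

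Among 32 regulators of cell cycle genes, 0 passed in any comparison, and at an unadjusted p below 0.05 the limma fit counted 6 in HIF-1α knockdown, 8 in HIF-2α knockdown and 6 between the knockdowns (18.8%, 25% and 18.8% of the list, against 13.2%, 12% and 13.6% of all genes). TFDP2, a partner of E2F, had the smallest p in both knockdowns, with differences of 0.32 (SE 0.08, adjusted p = 0.0714) and 0.33 (SE 0.08, adjusted p = 0.0700). CCND1, the cyclin D1 that opens the cell cycle, differed by -0.32 in HIF-2α knockdown (adjusted p = 0.0929). CDKN1A, which encodes the cyclin-dependent kinase inhibitor p21, was 0.28 lower in HIF-2α than in HIF-1α knockdown by its means of 8.62 and 8.90 (adjusted p = 0.0664), short of the threshold. After quantile normalization 0 regulators passed in HIF-1α knockdown, 2 in HIF-2α knockdown and 2 between the knockdowns, beside 294, 388 and 850 of all genes.

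Of 40 measured genes of DNA replication, 17 were positive in HIF-1α knockdown with a median of -0.02, against 28 of 39 and 0.12 for the mitotic genes. With quantile normalization these medians were -0.10 and 0.03, and the difference between the lists was not tested. In HIF-2α knockdown 34 of 40 were positive with a median of 0.09 (24 and 0.05 without its replicate 2), and between the knockdowns 36 of 40 with a median of 0.15, where the mitotic genes had -0.01. No replication gene passed in any comparison, and the limma fit counted 5, 8 and 12 at an unadjusted p below 0.05 (12.5%, 20% and 30% of the list, against 13.2%, 12% and 13.6% of all genes). ORC1, of the complex that marks replication origins, came closest between the knockdowns (0.37, SE 0.09, adjusted p = 0.0537). After quantile normalization 2 replication genes passed in HIF-1α knockdown, 0 in HIF-2α knockdown and 8 between the knockdowns, beside 294, 388 and 850 of all genes. With each array centred on its own median 2 passed between the knockdowns, beside 425 of all genes. Without HIF-2α knockdown replicate 2 the median between the knockdowns was 0.09, with 31 of 40 positive and 0 passing.

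The mean of 33 genes of ribosomal proteins, which were measured on the same arrays, ran from 11.99 to 12.51 over the wild type arrays, from 11.69 to 12.01 over those of HIF-1α knockdown and from 11.83 to 12.40 over those of HIF-2α knockdown. In HIF-1α knockdown 32 of 33 were negative, with a median of -0.44 that was -0.16 under quantile normalization. RPL11, of the large subunit, was the 1 that passed (-0.78, adjusted p = 0.0368, and 0.76 between the knockdowns, adjusted p = 0.0206), with adjusted p up to 0.204 and 0.315 over all settings. The first did not pass when any 1 of the HIF-1α knockdown arrays or of wild type replicates 1, 2 and 4 was left out, nor the second without HIF-1α knockdown replicate 1 or 2 or HIF-2α knockdown replicate 2 or 4. The hepatocyte markers had a median of -0.48 there (-0.21 under quantile normalization), with 9 of 9 negative. FGB, which encodes a chain of fibrinogen, passed in each comparison: it fell by 1.75 in HIF-1α knockdown (adjusted p = 9.03e-06), rose by 0.63 in HIF-2α knockdown (adjusted p = 0.0196) and was 2.38 higher in HIF-2α than in HIF-1α knockdown (adjusted p = 1.66e-07). The rise in HIF-2α knockdown did not pass without wild type replicate 2 or 4 (adjusted p = 0.0585 and 0.0527) or without the raised-floor arrays (adjusted p = 0.208). The part of these array-wide differences in the values of the mitotic genes was not tested.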

How the data were processed

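Expression was measured on 12 arrays, 4 per group. The values are the authors' deposited log2 values for 32321 probe sets, ranging from 5.93 to 15.05, with the base of the logarithm inferred from that range. Background correction, summarization and normalization were not given in the sources used here. No counts or detection calls come with them, and precision is limited by the number of arrays.

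The platform annotation, updated through RefSeq identifiers, gave the gene names. Of the probe sets, 19158 had 1 symbol, 1388 several and 11775 none. The brightest probe set stood for each of 637 genes with several, leaving 18404 genes.

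Groups were compared with limma 3.58.1 in R 4.3.3 (lmFit with 1 mean per group over all 12 arrays, eBayes), with Benjamini-Hochberg adjustment over all genes and a threshold of 0.05. The series' design text gives a different spheroid experiment for each array of a group, and p-values measure the spread between these. HIF1A and EPAS1 also had a two-sided exact permutation test. The fit was tested on simulated data.

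The members and all gene lists were chosen with earlier results of these data known. Values on every array are given for the 4 members with the smallest p in each comparison, the 2 brightest, the 2 dimmest, CCNB1, CDK1, MKI67 and TOP2A, and in part for MAD2L1, chosen after its values were seen. For other lists the rule took the called genes, or the 2 with the smallest p where none was called, and not all of the latter are printed. Alternatives were other scalings, another variance model, other probe set and filter rules, fewer arrays, leaving out each array, and the replicate number as a block. Promoter letters were counted in RefSeq windows of GRCh38.p14.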

Additional observations from a re-analysis of the deposited data

Results flagged for a closer look

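In each group of 4 arrays, a value was singled out when its gap to the nearest other array, divided by the range of the group, exceeded Dixon's critical value at 95%. Chance alone singles out about 1 in 20 groups. Of 141 groups tested, 117 of them for the mitotic genes, 6 were found, and 3 of these are high values on HIF-2α knockdown replicate 2. BUB1, a checkpoint kinase, read 10.64 on that array, against 9.77 to 9.90 on the other 3. MAD2L1, the checkpoint protein that holds CDC20, read 10.00 there, against 9.34 to 9.43. The mean of the DNA replication genes was 9.91 there, against 9.67 to 9.69.

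The other 3 lie on different arrays. PTTG1, which encodes securin, read 9.56 on HIF-2α knockdown replicate 4, against 9.38 to 9.39 on the other 3 arrays. NUSAP1, a spindle protein, read 10.28 on HIF-1α knockdown replicate 1, against 10.52 to 10.55. ANLN, which encodes the cytokinesis protein anillin, read 9.75 on wild type replicate 1, against 10.02 to 10.05.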

How the results depend on the processing

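Quantile normalization called 1 mitotic gene in each comparison: KIF2C in HIF-1α knockdown against wild type (adjusted p = 0.0346), PTTG1 in HIF-2α knockdown against wild type and KIF2C between the knockdowns. With each array left out in turn the count was 0 in both comparisons with wild type and ran from 0 to 1 between the knockdowns. All other settings called 0. The fall of HIF1A without the raised-floor arrays was -1.24 and did not pass (adjusted p = 0.103), with the cause not tested. Over 21 alternatives the median difference of the mitotic genes ran from 0.03 to 0.17 in HIF-1α knockdown and from -0.00688 to 0.22 in HIF-2α knockdown. Between the knockdowns it ran from -0.08 to 0.09, with both signs. Several alternatives could not move it: another variance model, a gene filter or the loss of an array of the group not compared leaves the group means unchanged. The only negative median in HIF-2α knockdown came from leaving out its replicate 2 and the raised-floor arrays together. That setting was not planned in advance and kept only replicates 1 and 3 of HIF-2α knockdown and replicates 3 and 4 of wild type. The lowest median in HIF-2α knockdown apart from it was 0.03. The counts of all genes called ran from 21 to 483 in HIF-1α knockdown, 20 to 388 in HIF-2α knockdown and 128 to 850 between the knockdowns, against 177, 145 and 509. Whether the replicate numbers pair the arrays was not settled. Arrays with the same number correlated at -0.17 to 0.64 in their deviations from the group means, and 5 of 12 pairs lay above 0.1. Between wild type and HIF-1α knockdown the values were 0.17, 0.31, 0.64 and -0.04 for replicates 1 to 4. In 3 of the 12 pairs the same number gave the highest correlation. With the replicate block 0 mitotic genes passed in each comparison and 234, 202 and 562 of all genes.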
